A study of Homo sapiens with 13 samples.

Results

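The change from 12 h to 36 h of tamoxifen was examined in MCF10A-Src cells by comparing the 2 polyA RNA-seq libraries made at 36 h with the 1 library made at 12 h. MCF10A cells come from human breast epithelium and are immortal but form no tumours, although the cell type field of the labels reads breast cancer. In MCF10A-Src a v-Src kinase fused to the ligand-binding domain of the estrogen receptor becomes active when tamoxifen is added. All gene rows of the deposited time-course table with an FPKM (the fragments of a gene per length of transcript and per depth of library) of 1 or more in any of the 3 libraries were taken, which gave 14745 of 38369 rows. Of these, 14713 were tested and 32 were not, because the authors' table did not give them the status OK in every library. Just inside the limit, the highest FPKM was 1.0006 for linc-KCTD9-AS and linc-CDC14B-AS, and just outside it was 0.9997 for linc-FBLN1-AS.

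Every group carried the same Src fusion and the same culture medium, which contained serum, hydrocortisone, cholera toxin, EGF and insulin. The 12 h group was 1 library with no replicate, and no untreated cells matched to 12 h or 36 h were in the time course. The libraries at 0 h (1, untreated) and 4 h (2) entered the model to estimate the spread and are quoted as reference levels. The study as a whole followed Src transformation over time and, in parental cells, over-expression of the long intergenic RNA (lincRNA) LINC00520. The labels do not tell whether replicate libraries are separate cultures; the p-values therefore rest on a spread among libraries that may be technical.

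Depth was 26580908 fragments at 12 h and 24024268 and 12576940 at 36 h. The 10 rows with the most fragments took 6.0% of the 12 h library against 11.4% and 13.2% of the 36 h libraries, and levels are therefore given as CPM, fragments scaled to a common library size with TMM factors, which can be compared within a gene but not between genes. Members differed between the 36 h libraries by a median of 0.16 on the log2 scale, against 0.48 between 36 h and 12 h, and 106 against 2670 members were more than 2-fold apart. These values are not measured alike. The 36 h libraries were compared on CPM with a small constant added, which shrinks differences at low levels. The times were compared by the fitted change, without that constant. Markers of basal breast epithelium were all detected, with a summed FPKM of 5280 at 12 h and 4380 and 4010 at 36 h. The sum hides a split, since by the test below 3 of the 11 were higher at 36 h and 3 lower. KRT5, the largest part of the sum at 12 h, went from 2220 to 1060 and 1020 FPKM, and LAMB3 from 461 to 1320 and 1080. In bulk RNA, fewer cells of a type and less RNA per cell cannot be told apart, which holds for every level below.

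As background, v-Src drives cells through NF-kB, IL-6 and STAT3 signalling, in which secreted IL-6 family cytokines act through the shared receptor gp130 and the JAK kinases. Cells that enter S phase express the genes of DNA replication under the E2F factors, whereas genes of mitosis are driven later by FOXM1 and B-MYB through a promoter element known as the CHR. Basal breast epithelial cells sit on laminin-332 through integrins, and remodel that contact with proteases when they become motile. Genes of amino acid supply are driven by ATF4.

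Promoters are shown first for 6 genes, 3 of DNA replication, 2 of mitosis and 1 of amino acid supply, because they stand for the gene groups whose promoter letters are compared with their change at 36 h. They cover 250 bases before to 50 bases after the RefSeq start site on GRCh38.p14, a later build than the hg19 of the deposited table, and run 5′ to 3′ on the gene's strand. CDC6 lies at chr17:40287629-40287928 on the plus strand, E2F1 at chr20:33686336-33686635 on the minus strand and MCM2 at chr3:127598161-127598460 on the plus strand. CDC20 lies at chr1:43358731-43359030 on the plus strand, TOP2A at chr17:40417847-40418146 on the minus strand and ASNS at chr7:97872359-97872658 on the minus strand. Capitals mark E2F-type letters (TTTGGCGC, TTTCCCGC, TTTCGCGC or TTTGCCGC) in the first 3, the CHR letters TTTGAA in CDC20 and TOP2A, and the ATF4-type letters TGATGNAA in ASNS, searched on both strands. Matches may overlap, as the 2 in MCM2 do.
CDC6: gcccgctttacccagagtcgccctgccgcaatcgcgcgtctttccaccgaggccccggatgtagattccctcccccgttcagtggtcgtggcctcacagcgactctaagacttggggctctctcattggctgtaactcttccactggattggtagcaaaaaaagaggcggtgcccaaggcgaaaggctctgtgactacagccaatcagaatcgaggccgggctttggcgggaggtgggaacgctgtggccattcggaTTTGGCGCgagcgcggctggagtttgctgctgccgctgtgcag
E2F1: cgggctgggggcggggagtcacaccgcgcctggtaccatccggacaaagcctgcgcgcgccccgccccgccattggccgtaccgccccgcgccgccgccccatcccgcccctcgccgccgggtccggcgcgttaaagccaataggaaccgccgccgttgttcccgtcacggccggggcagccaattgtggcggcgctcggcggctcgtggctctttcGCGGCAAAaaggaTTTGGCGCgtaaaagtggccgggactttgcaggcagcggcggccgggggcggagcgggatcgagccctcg
MCM2: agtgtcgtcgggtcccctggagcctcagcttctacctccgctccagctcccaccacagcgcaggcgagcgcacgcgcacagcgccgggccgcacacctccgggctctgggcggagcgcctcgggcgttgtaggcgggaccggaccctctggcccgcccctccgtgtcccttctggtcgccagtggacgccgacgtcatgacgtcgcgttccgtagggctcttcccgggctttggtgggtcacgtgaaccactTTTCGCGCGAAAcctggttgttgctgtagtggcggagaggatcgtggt
CDC20: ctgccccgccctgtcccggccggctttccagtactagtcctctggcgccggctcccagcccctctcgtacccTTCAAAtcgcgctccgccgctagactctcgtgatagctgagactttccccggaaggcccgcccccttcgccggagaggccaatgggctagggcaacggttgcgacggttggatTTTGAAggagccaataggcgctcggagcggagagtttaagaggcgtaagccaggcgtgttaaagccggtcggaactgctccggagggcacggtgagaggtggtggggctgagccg
TOP2A: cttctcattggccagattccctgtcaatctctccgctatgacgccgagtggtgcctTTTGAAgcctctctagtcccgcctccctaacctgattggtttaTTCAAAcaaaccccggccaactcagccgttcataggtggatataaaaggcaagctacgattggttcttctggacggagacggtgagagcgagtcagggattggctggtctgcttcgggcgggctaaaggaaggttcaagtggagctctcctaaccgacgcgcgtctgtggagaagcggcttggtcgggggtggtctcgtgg
ASNS: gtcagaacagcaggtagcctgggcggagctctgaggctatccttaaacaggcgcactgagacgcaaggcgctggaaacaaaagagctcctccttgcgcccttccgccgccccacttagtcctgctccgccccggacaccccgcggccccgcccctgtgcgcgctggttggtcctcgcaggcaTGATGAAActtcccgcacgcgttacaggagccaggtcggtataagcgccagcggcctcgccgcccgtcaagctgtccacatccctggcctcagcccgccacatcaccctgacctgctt

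The E2F-type letters were found in 19 of the 36 replication genes with a promoter entry (52.8%), against 908 of 27305 promoters of the same length (3.33%). All 19 of those genes were lower at 36 h, with a median log2 change of -1.78, and so were 12 of the 17 without the letters, with a median of -1.02. The CHR letters were found in 16 of 27 mitosis genes (59.3%), against 15.4% of all promoters. Of those 16 genes 2 were lower at 36 h (median -0.41), as were 2 of the 11 without (median -0.28). ATF4-type letters were found in 3 of 21 amino acid response genes (14.3%), against 3.67% of all promoters, and all 3 were lower (median -1.33). Of the 18 without them 5 were lower and 2 higher (median -0.07). A match is a description of the letters and not a site of binding.

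Between 12 h and 36 h, 3192 of the 14713 members tested (21.7%) passed edgeR's quasi-likelihood test at a Benjamini-Hochberg adjusted p of 0.05. Below, rose and fell are used only of members past that threshold. At 36 h 1605 members were higher (10.9%) and 1587 lower (10.8%), and 985 (6.69%) and 1015 (6.90%) of them differed by an estimated 2-fold or more. Both 36 h libraries lay above the 12 h library for 42.9% of members and below it for 44.7%. Every one of the 3192 called members had both 36 h libraries on the called side. The counts rested on both 36 h libraries: without the first, 952 members were higher and 1021 lower, and without the second 799 and 714. When only the 3 libraries of 12 h and 36 h were fitted, 3123 members were higher and 3218 lower. Leaving out the first or the second 4 h library likewise gave 3040 and 3217, or 3083 and 3046. When library totals alone set the scale, the median member moved from -0.01 to -0.32 and the split became 836 higher and 3183 lower. In the authors' deposited table of calls 1669 members were higher and 1359 lower, and 2367 were called by both with the same direction. With DESeq2 1785 of 14324 members were higher (12.5%) and 1349 lower (9.42%).

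**Figure D1:**
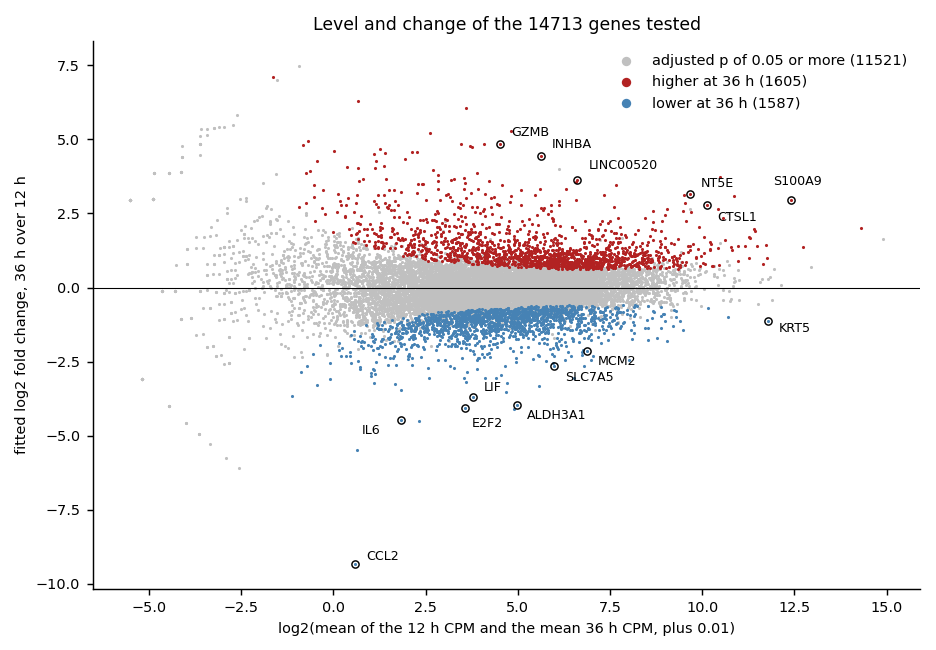
Each point is 1 of the 14713 members tested, with the log2 of its mean level on the x axis (CPM, plus 0.01) and its fitted log2 fold change from 12 h to 36 h on the y axis. Red marks 1605 members that were higher and blue 1587 that were lower at 36 h, and the fitted value of a member with no fragment at one time, such as CCL2, depends on the model's prior and is no measure of its fold.

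GC content moved with the change. Among the 9511 single-symbol coding members with a transcript GC value (89.6% of 10610), the median log2 change went from 0.30 in the lowest of 5 GC bins of equal size to -0.40 in the highest. In the lowest bin 392 members rose and 71 fell, and in the highest 84 rose and 446 fell. Between the 36 h libraries themselves the same medians ran from 0.08 to -0.07. With offsets that removed the trend, an alternative chosen after seeing the data, 1403 members were higher and 1100 lower. Of the 14713 members only the 9511 with a GC value received such offsets. No lincRNA row and no row with several symbols was corrected, though these rows are in the counts. The part of GC content in the change of any gene below was not tested beyond that correction.

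**Figure D2:**
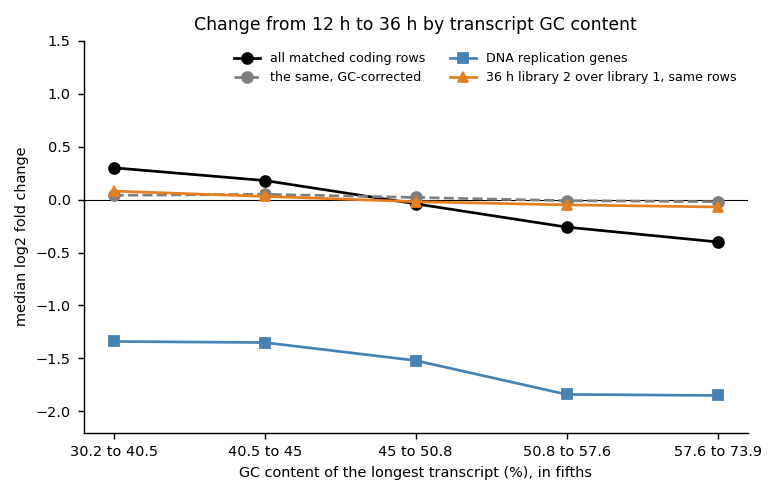
The x axis is the GC content of the longest transcript in 5 bins of equal size (%), and the y axis the median log2 fold change. Black circles are all matched coding rows from 12 h to 36 h, grey circles the same after GC correction, orange triangles the second over the first 36 h library, and blue squares the DNA replication genes, which lay between -1.34 and -1.85 in every bin.

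The gene lists below group members by known role, and the share of each that rose or fell is plotted beside its median. Among the lists plotted DNA replication stood lowest, with a median of -1.45, and metallothioneins highest, with 2.55. In either direction 21.7% of all members were called. Plotted lists at 21.1% to 25.0% were ERK feedback, the BCL2 family, cornification, lysosome and autophagy, immediate early genes, heat shock, interferon response, aminoacyl-tRNA synthetases and ribosome biogenesis.

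**Figure D3:**
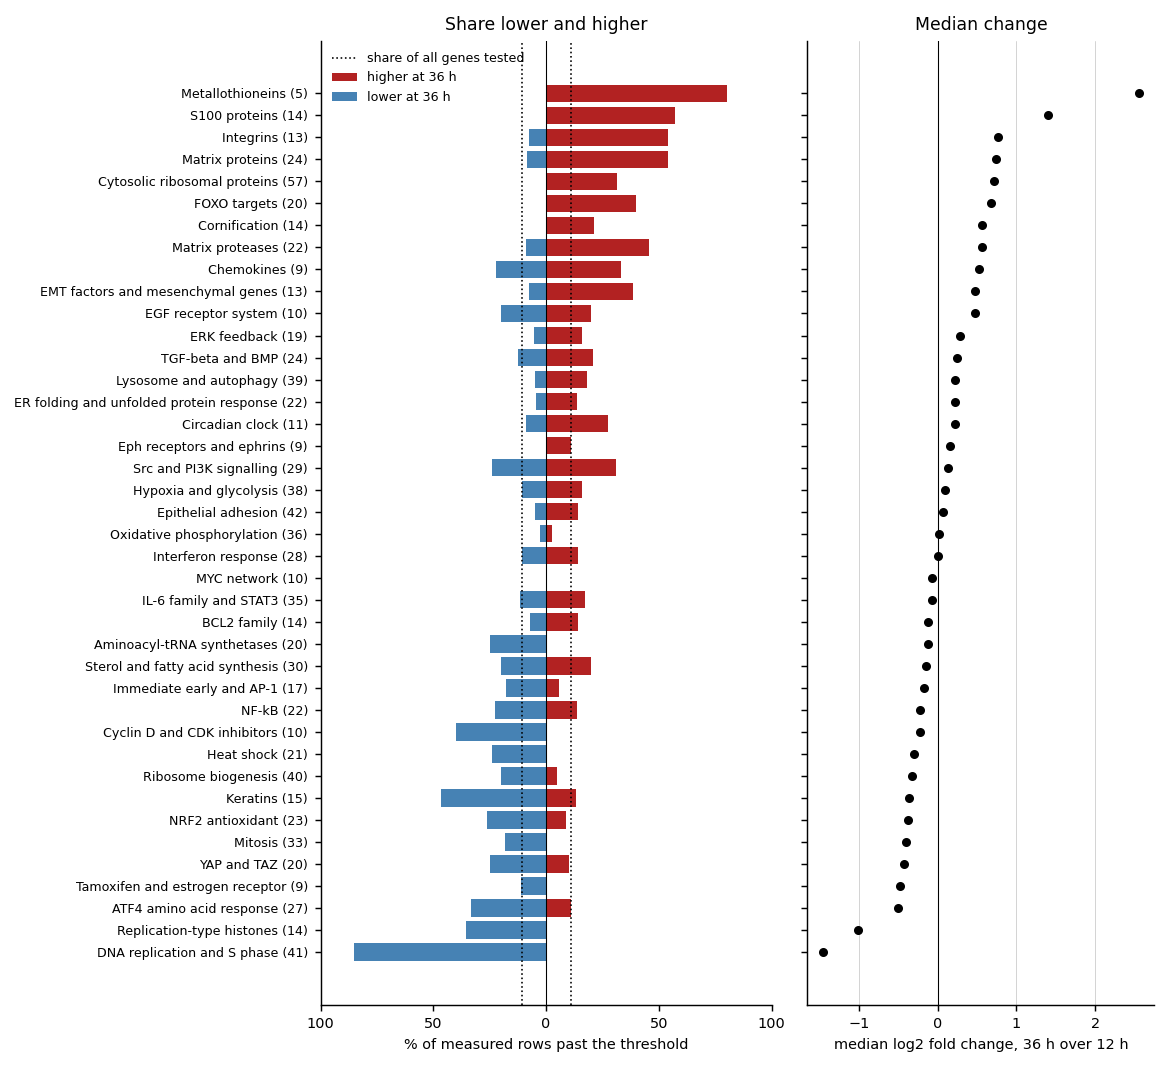
For each gene list, with the number of measured rows in brackets, bars give the percentage of rows higher (red) or lower (blue) at 36 h and dots on the right the median log2 fold change from 12 h to 36 h. Dotted lines are the shares of all members tested, 10.9% higher and 10.8% lower.

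DNA replication genes fell together between 12 h and 36 h. Of 41 measured rows of DNA replication and S phase 35 fell and 0 rose, against 10.8% and 10.9% of all members. For 40 of the 41 both 36 h libraries lay below the 12 h library, against 44.7% of all members. With DESeq2 34 fell and 0 rose, and at an unadjusted p under 0.05 37 were lower and 0 higher. After GC correction 33 fell, and without the first or the second 36 h library 30 and 29 fell. The rows that did not pass were DBF4, RFC4, RRM1, DUT, E2F8 and RB1.

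Licensing loads the MCM helicase on origins, and 15 of the 16 measured genes of licensing and initiation fell (median -1.52). CDC6, which loads the helicase, was at 37.3 CPM at 0 h, 49.9 and 54.2 at 4 h, 92.7 at 12 h, and 16.5 and 16.8 at 36 h. The 12 h library was thus the highest of the 6 and both 36 h libraries the lowest (log2 -2.48, SE 0.187, edgeR adjusted p = 0.000892). MCM2, a subunit of the helicase, went from 193 CPM at 12 h to 45.1 and 42.9 (log2 -2.13, SE 0.177, edgeR adjusted p = 0.00114). CDT1, the partner of CDC6 in loading, fell less (log2 -0.94, edgeR adjusted p = 0.0275), and lost its call after GC correction (log2 -0.51, adjusted p = 0.161) and without either 36 h library (adjusted p = 0.153 without the first and 0.0711 without the second).

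Among 16 measured genes of DNA and nucleotide synthesis 13 fell (median -1.22). PCNA, the sliding clamp of the replicative polymerases, stood at 77.7 CPM at 0 h, 73.7 and 91.3 at 4 h, 114 at 12 h, and 28.1 and 31.3 at 36 h. Its change was -1.95 on the log2 scale (SE 0.203, edgeR adjusted p = 0.00187), and the 36 h libraries lay below all 4 others. TK1, the thymidine salvage kinase, went from 36.7 CPM to 9.85 and 10.5 (log2 -1.85, SE 0.206). RRM2, the small subunit of ribonucleotide reductase, went from 266 CPM to 110 and 139 (log2 -1.10, SE 0.199), and TYMS, thymidylate synthase, from 32.0 to 8.99 and 14.6 (log2 -1.46, SE 0.329). For RRM2 the 36 h libraries were close to the 155 CPM of 0 h and to the 136 and 127 of 4 h, so the 12 h library stood apart on the high side.

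Among 9 regulators of S phase entry 7 fell (median -1.54). E2F1, the activating E2F, was at 8.83 CPM at 0 h, 11.7 and 10.1 at 4 h, 21.8 at 12 h, and 2.27 and 2.56 at 36 h (log2 -3.18, SE 0.256, edgeR adjusted p = 0.00111). E2F2, a second activator, went from 22.2 CPM to 0.966 and 1.90 (log2 -4.05, SE 0.341). CCNE2, a cyclin that activates CDK2 at the start of S phase, went from 37.6 to 4.15 and 4.93 (log2 -3.06, SE 0.231). Its relative CCNE1 fell from 16.6 to 8.70 and 7.69 (log2 -1.02, SE 0.242, edgeR adjusted p = 0.0243). That call ended after GC correction (log2 -0.80, adjusted p = 0.0584) and without either 36 h library (adjusted p = 0.0742 and 0.146). Replication-type histone rows, made in S phase, followed with 5 of 14 lower and 0 higher (median -1.01, with DESeq2 7 and 0, without the first 36 h library 8 and after GC correction 2). HIST1H4H went from 177 CPM to 43.5 and 33.8 (log2 -2.19, SE 0.366, edgeR adjusted p = 0.00806). Histone transcripts mostly lack a polyA tail, and the genes are near-identical copies, so polyA libraries give uncertain values for them.

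Of 33 measured rows of mitosis 6 fell (18.2%, against 10.8% of all members) and 0 rose (median -0.40), with 12 and 0 at an unadjusted p under 0.05 and 6 and 0 by DESeq2. Under library totals alone 20 fell, so this count depended on the scale. FOXM1, the factor that drives mitotic genes, was lower in both 36 h libraries at 21.4 CPM than at 12 h (66.6 CPM, log2 -1.63, SE 0.259, edgeR adjusted p = 0.00696). MYBL2, or B-MYB, went from 174 to 61.0 and 70.3 (log2 -1.40, SE 0.191), CDC20, an activator of the anaphase-promoting complex, from 142 to 66.0 and 56.2 (log2 -1.22, SE 0.194), and the kinase PLK1 from 64.6 to 30.6 and 25.3 (log2 -1.20, SE 0.202). TOP2A, the topoisomerase of chromosome condensation, was at 525 CPM at 12 h and 495 and 481 at 36 h (log2 -0.10, SE 0.198, edgeR adjusted p = 0.74). MKI67, the proliferation marker Ki-67, was at 358 and then 264 and 215 CPM (log2 -0.58, SE 0.207, edgeR adjusted p = 0.0825). CCNB1, the mitotic cyclin, and AURKA, a spindle kinase, gave -0.73 and -0.60 on the log2 scale and did not pass either.

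**Figure D4:**
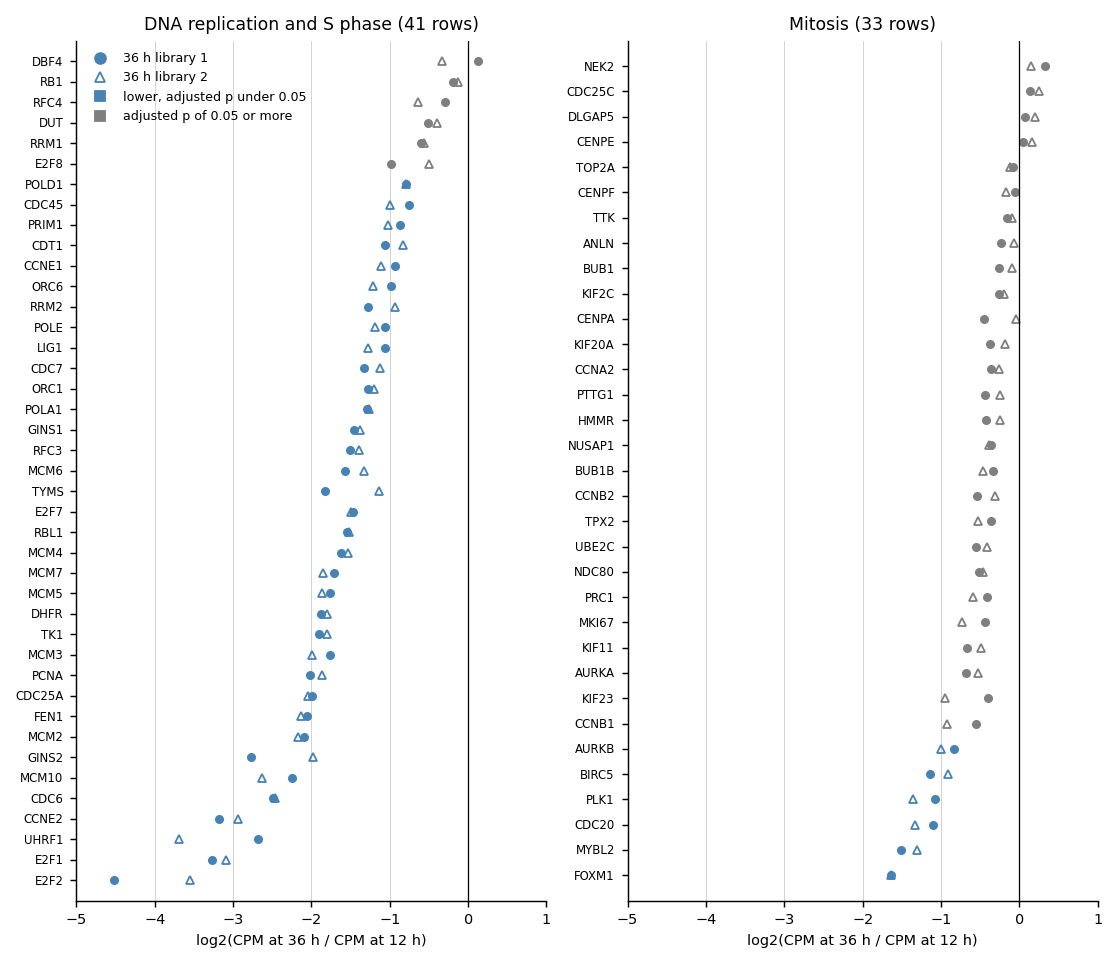
Each row is a gene, and the x axis is the log2 ratio of its level (CPM) in each 36 h library to that in the 12 h library, with filled circles for the first and open triangles for the second 36 h library. Blue marks genes that were lower by edgeR: 35 of 41 for DNA replication on the left and 6 of 33 for mitosis on the right.

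Upstream of S phase, 4 of 10 measured D-type cyclin and CDK inhibitor genes fell, but 0 did so without either 36 h library, and 1 after GC correction. CDK4, the kinase partner of the D cyclins, went from 91.7 CPM to 46.0 and 48.1 (log2 -0.96, SE 0.209, edgeR adjusted p = 0.0182). It lost the call after GC correction (log2 -0.72, adjusted p = 0.0571) and without the first or the second 36 h library (adjusted p = 0.0598 and 0.0515). CCND1, or cyclin D1, was at 290 and then 263 and 232 CPM (log2 -0.23, edgeR adjusted p = 0.408). CDKN1A, the CDK inhibitor p21, was at 107 and then 88.1 and 95.6 CPM (log2 -0.22, edgeR adjusted p = 0.418), and MYC at 7.95 and then 7.87 and 8.35 (log2 0.03, SE 0.243). Among 10 genes of the MYC network 0 passed by edgeR, 1 was higher and 2 lower at an unadjusted p under 0.05, and DESeq2 called 1 in each direction.

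In the IL-6 and STAT3 group the ligands were lower at 36 h while several acute-phase targets were higher. Of 35 measured rows 6 rose and 4 fell. The median was -0.07 and turned to 0.10 after GC correction and to 0.01 without the second 36 h library. All 5 measured ligands had both 36 h libraries below 12 h, and 3 of them fell. Of all members 44.7% had both 36 h libraries below 12 h, and 10.8% fell.

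IL6, the cytokine that names the group, was at 0.490 CPM at 0 h, 6.69 and 11.3 at 4 h, 6.89 at 12 h, and 0.483 and 0 at 36 h (195 fragments at 12 h, then 10 and 0). Its fall was -4.46 on the log2 scale (SE 0.671, edgeR adjusted p = 0.00598), and the 36 h libraries did not overlap those of 4 h or 12 h. The authors' deposited table did not call IL6 (their q-value 0.225). LIF, which signals through the same gp130 receptor, was at 6.38 CPM at 0 h, 51.4 and 64.0 at 4 h, 25.4 at 12 h, and 2.03 and 1.90 at 36 h (log2 -3.68, SE 0.252, edgeR adjusted p = 0.000797). IL24, an IL-10 family ligand of STAT3, followed another course: it was at 0.403 CPM at 0 h and highest at 12 h (491 CPM), and fell to 229 and 233 CPM at 36 h (log2 -1.09, SE 0.172, edgeR adjusted p = 0.00692).

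The receptors and kinases gave few calls. IL6R and the gp130 gene IL6ST gave log2 changes of -0.07 and 0.10. STAT3 itself was at 270 CPM at 0 h, 470 and 457 at 4 h, 631 at 12 h, and 523 and 460 at 36 h (log2 -0.36, SE 0.186, edgeR adjusted p = 0.198). Of 8 measured kinases and factors 0 passed by edgeR or DESeq2, and 0 were higher and 2 lower at an unadjusted p under 0.05. SOCS3, the inhibitor that STAT3 induces, was at 14.3 CPM at 0 h, 458 at 12 h and 426 and 396 at 36 h (log2 -0.16, edgeR adjusted p = 0.632). It thus stayed far above its 0 h level at both times, and none of the 5 feedback inhibitors passed by edgeR, by DESeq2 or at an unadjusted p under 0.05 (0 in each).

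Among 12 measured STAT3 targets 5 rose and 1 fell. The row of SERPINA3, an acute-phase protease inhibitor, shared with SERPINA5, was at 24.2 CPM at 0 h, 46.5 and 46.6 at 4 h, 183 at 12 h, and 1300 and 1330 at 36 h (log2 2.85, SE 0.209, edgeR adjusted p = 0.000861). HP, or haptoglobin, went from 3.53 to 25.3 and 21.7 CPM (log2 2.73, SE 0.301), but was not called in the authors' deposited table (their q-value 0.166). SAA1, serum amyloid A, went from 250 to 687 and 694 (log2 1.47, SE 0.188, edgeR adjusted p = 0.00377). For these 3 both 36 h libraries were the highest of the 6. FOSL1, an AP-1 subunit, fell (log2 -0.99, SE 0.240, edgeR adjusted p = 0.0257), a call that ended after GC correction (log2 -0.63, adjusted p = 0.0949) and without the second 36 h library (adjusted p = 0.119).

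NF-kB genes moved in both directions, with 3 of 22 higher and 5 lower (median -0.22, turning to 0.05 after GC correction, and without the second 36 h library 1 higher and 4 lower). None of the 5 subunits passed by edgeR or DESeq2, with 0 higher and 2 lower at an unadjusted p under 0.05. PTGS2, the inducible cyclooxygenase, went from 28.3 CPM to 11.1 and 11.4 (log2 -1.33, SE 0.218, edgeR adjusted p = 0.00745), and CD83, a surface protein of activated immune cells, from 6.54 to 0.725 and 0.380 (log2 -3.45, SE 0.402). IL1A, interleukin-1 alpha, rose from 100 to 222 and 217 CPM (log2 1.14, SE 0.184, edgeR adjusted p = 0.00732). SOD2, the mitochondrial superoxide dismutase, rose from 2310 to 4380 and 4800 (log2 0.99, SE 0.252, edgeR adjusted p = 0.0303). That call ended under library totals alone and without the second 36 h library (adjusted p = 0.0539).

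The chemokine genes also split. CCL2, which attracts monocytes, had 85 fragments at 12 h (3.00 CPM) and none in either 36 h library, at least 31.8-fold lower with a floor of 3 fragments over both libraries (edgeR adjusted p = 0.00211). At 4 h it had been at 9.29 and 8.49 CPM and at 0 h at 0.0175. CXCL3, a neutrophil attractant, rose from 6.68 to 24.6 and 24.4 CPM (log2 1.87, SE 0.291), and its receptor gene IL8RB, or CXCR2, from 5.09 to 27.7 and 39.9 (log2 2.72, SE 0.324, edgeR adjusted p = 0.00284). CXCL1 was at 56.0 and then 54.0 and 55.6 CPM (log2 -0.03), and IL8 at 67.8 and then 132 and 156 (log2 1.09, SE 0.399, edgeR adjusted p = 0.0895). PTX3, a secreted pentraxin of innate immunity, was among the 10 largest falls, from 56.0 CPM to 2.71 and 4.08 (log2 -4.09, SE 0.541, edgeR adjusted p = 0.00415).

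Interferon response genes were 4 higher and 3 lower of 28 (median 0.01, and -0.30 under library totals alone; without the second 36 h library 2 and 2). The share of the interferon list called was 25.0%, against 21.7% of all members. IRF1, an interferon-induced transcription factor, fell from 21.6 to 7.10 and 5.88 CPM (log2 -1.72, SE 0.250, edgeR adjusted p = 0.00538). ISG20, an exonuclease, rose from 5.37 to 36.6 and 38.9 (log2 2.81, SE 0.273), and IFITM1, which blocks virus entry, from 13.6 to 39.0 and 52.9 (log2 1.75, SE 0.268). IFIT1 and ISG15 gave 0.18 and 0.22 with standard errors of 0.420 and 0.435.

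Within Src and PI3K signalling 9 of 29 measured rows rose and 7 fell, and the median of 0.13 turned to -0.19 under library totals alone. Without the first 36 h library 4 rose and 2 fell, and without the second 4 rose, 3 fell and the median was -0.18. After GC correction 4 rose and 3 fell. SRC was at 19.2 CPM at 0 h, 24.0 at 12 h and 14.5 and 11.5 at 36 h (log2 -0.87, SE 0.283, edgeR adjusted p = 0.0632), and reads of the introduced viral gene may not map to it. GAB2, an adaptor of receptor kinases, rose from 3.96 to 21.7 and 15.2 CPM (log2 2.23, SE 0.321). PIK3R1, the regulatory subunit of PI3K, rose from 176 to 604 and 568 (log2 1.74, SE 0.199), and PAG1, which recruits the Src inhibitor CSK, from 15.2 to 116 and 92.1 (log2 2.77, SE 0.252, edgeR adjusted p = 0.00132). All 3 were higher in both 36 h libraries than in any of the 4 earlier ones.

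Feedback genes of the ERK pathway were 3 higher and 1 lower of 19 (median 0.29, and -0.02 under library totals alone; 2 and 0 without the second 36 h library). The share of the ERK list called, 21.1%, was near the 21.7% of all members. PHLDA1 rose from 129 to 434 and 472 CPM (log2 1.81, SE 0.194), and ERRFI1, an inhibitor of the EGF receptor, from 79.5 to 168 and 153 (log2 1.01, SE 0.215, edgeR adjusted p = 0.0169). Of the EGF family ligands EREG, or epiregulin, rose from 57.4 to 190 and 199 (log2 1.76, SE 0.243). HBEGF fell from 32.3 to 12.3 and 6.93 (log2 -1.72, SE 0.320, edgeR adjusted p = 0.0111). EGFR was at 231 and then 181 and 135 CPM (log2 -0.55, edgeR adjusted p = 0.117). In the immediate early group FOSB fell from 32.0 to 13.8 and 9.87 CPM (log2 -1.42, SE 0.255) and KLF6 rose from 138 to 292 and 395 (log2 1.32, SE 0.259), while FOS, JUN and EGR1 gave -0.06, -0.58 and 0.44 and did not pass. FOSB was not called in the authors' deposited table (their q-value 0.281).

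Secreted and intracellular S100 proteins, calcium-binding proteins many of which are made by stressed or differentiating epithelium, were often higher at 36 h. Of 14 measured rows 8 rose and 0 fell (median 1.40), with 7 and 0 by DESeq2, 8 and 0 at an unadjusted p under 0.05, and 7 and 1 under library totals alone. S100A8 was at 53.8 CPM at 0 h, 84.5 and 115 at 4 h, 388 at 12 h, and 3150 and 3520 at 36 h (log2 3.10, SE 0.281, edgeR adjusted p = 0.00132). S100A9, with which it forms calprotectin, was at 230, 346 and 401, 1240, and 8920 and 10400 CPM in the same order (log2 2.97, SE 0.259, edgeR adjusted p = 0.00132). S100A9 alone took 0.768% and 0.874% of the fragments of the 36 h libraries. S100A7, or psoriasin, went from 0.848 to 10.1 and 9.20 CPM (log2 3.50, SE 0.374) and S100P from 5.44 to 28.7 and 29.8 (log2 2.43, SE 0.311). In each of these 4 genes the 36 h libraries lay above all earlier ones.

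In the cornification list, of genes that build the outer shell of differentiated skin cells and the proteases and inhibitors that shape it, 3 of 14 rows rose and 0 fell (DESeq2 3 and 0, unadjusted p under 0.05 5 and 0). The 21.4% called in this list was near the 21.7% of all members. Of its 8 envelope rows 1 rose, with 0 without the second 36 h library and under library totals alone, and of its 6 proteases and inhibitors 2 rose. The shared row of the protease inhibitors SERPINB3 and SERPINB4, near-identical genes, was at 6.57 CPM at 0 h, 163 and 156 at 4 h, 1170 at 12 h, and 4390 and 4370 at 36 h (log2 1.91, SE 0.212, edgeR adjusted p = 0.00226). SPINK5, an inhibitor of skin proteases, went from 2.16 to 15.9 and 16.7 (log2 2.91, SE 0.299). TGM1, the envelope cross-linker, was at 111 and then 107 and 90.5 CPM (log2 -0.16).

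Keratins were lower more often than higher, with 2 of 15 rows up and 7 down (median -0.36, and 0.02 after GC correction; 1 and 6 without either 36 h library). KRT5, the defining basal keratin, was at 4380 CPM at 0 h, 5910 and 5890 at 4 h, 4870 at 12 h, and 2280 and 2130 at 36 h (log2 -1.14, SE 0.197, edgeR adjusted p = 0.00877). In the authors' deposited table KRT5 was not called (their q-value 0.332). KRT17 went from 2220 to 1110 and 1090 (log2 -1.01, SE 0.188), and the hair keratin KRT81 from 818 to 231 and 243 (log2 -1.79, SE 0.189). KRT14, the partner of KRT5, was at 600 and then 461 and 474 CPM (log2 -0.36, SE 0.180, edgeR adjusted p = 0.188), and the stress keratin KRT6A at 4380 and then 5100 and 4190 (log2 0.08). KRT75, a keratin of the hair follicle, had 86 fragments at 12 h and 2 and 0 at 36 h, a ratio of 48.3 (exact 95% interval 13 to 405, counting error only). It was not among the authors' deposited calls (their q-value 0.603).

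The epithelial adhesion list, of junction, identity and surface genes, was called at a share (19.0%) near that of all members, with 6 of 42 higher and 2 lower (median 0.07, and -0.25 under library totals alone; 3 and 2 without the first 36 h library, 2 and 1 without the second). Of 8 desmosome rows 3 rose and 0 fell (1 and 0 without either 36 h library), of 13 tight junction rows 0 rose and 1 fell (DESeq2 0 and 1, unadjusted p under 0.05 3 and 2), and of 15 identity and surface rows 3 rose and 1 fell. CDH1, or E-cadherin, was at 120 and then 91.5 and 84.1 CPM (log2 -0.45, SE 0.194, edgeR adjusted p = 0.137), and EPCAM at 27.9 and then 25.6 and 31.6 (log2 0.03). CLDN1, a tight junction claudin, had gone from 71.8 CPM at 0 h to 491 and 481 at 4 h, and fell further from 31.5 at 12 h to 10.2 and 12.3 (log2 -1.50, SE 0.195, edgeR adjusted p = 0.00398). DSG3, a desmosomal cadherin, rose from 317 to 865 and 902 (log2 1.48, SE 0.218). Among factors and markers of mesenchymal change 5 of 13 rose and 1 fell, but 1 and 2 rose without the first and the second 36 h library. ZEB1, a repressor of CDH1, rose from 17.5 to 43.1 and 37.1 CPM (log2 1.20, SE 0.227, edgeR adjusted p = 0.012, and 0.0503 without the first 36 h library). VIM, or vimentin, rose from 244 to 389 and 369 (log2 0.63, SE 0.184, edgeR adjusted p = 0.0458). It lost that call under library totals alone, under upper-quartile scaling, with no FPKM filter and without either 36 h library (adjusted p = 0.214 and 0.181). CDH2, or N-cadherin, gave -0.62 and did not pass.

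Many genes for the matrix and its receptors rose. Of 24 measured matrix proteins 13 rose and 2 fell (median 0.74), with 7 higher and 1 lower without the first 36 h library, 9 and 1 without the second, and 6 and 3 under library totals alone. COL4A1, a basement membrane collagen, was at 114 CPM at 0 h, 128 and 128 at 4 h, 127 at 12 h, and 498 and 476 at 36 h (log2 1.94, SE 0.192, edgeR adjusted p = 0.00166). Its level was thus flat over the 4 libraries up to 12 h. LAMB3, the beta chain of laminin-332, was at 563 CPM at 0 h, 1390 and 1560 at 4 h, 1580 at 12 h, and 4490 and 3820 at 36 h (log2 1.39, SE 0.228, edgeR adjusted p = 0.00745). COL6A3 rose from 14 to 107 and 73.9 CPM (log2 2.69, SE 0.293), and SPP1, or osteopontin, from 0.884 to 9.81 and 9.96 (log2 3.48, SE 0.487). FN1, or fibronectin, was at 168 CPM at 12 h and 181 and 156 at 36 h (log2 0.00, SE 0.209).

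Integrins, the receptors for these proteins, were 7 higher and 1 lower of 13 (median 0.77), with 5 and 0 without the first 36 h library and 6 and 0 without the second. ITGA5, the fibronectin receptor chain, was at 78.1 CPM at 0 h, 98.1 and 89.2 at 4 h, 169 at 12 h, and 844 and 755 at 36 h (log2 2.24, SE 0.210, edgeR adjusted p = 0.00146). ITGA2, of the collagen receptor, rose from 703 to 1620 and 1720 CPM (log2 1.25, SE 0.205), ITGB1, the common beta chain, from 477 to 1100 and 1100 (log2 1.21, SE 0.202) and ITGB8 from 201 to 715 and 784 (log2 1.90, SE 0.220). ITGB4, of the hemidesmosome, was at 525 and then 961 and 780 CPM (log2 0.73, SE 0.297, edgeR adjusted p = 0.117).

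Matrix proteases and their inhibitors were 10 higher and 2 lower of 22 (median 0.56), with 7 and 1 without the first 36 h library, 6 and 0 without the second, and 6 and 3 under library totals alone. PLAU, or urokinase, rose from 75.9 to 247 and 174 CPM (log2 1.47, SE 0.253, edgeR adjusted p = 0.00865). ADAMTS6, a secreted protease, rose from 1.87 to 22.3 and 21.4 (log2 3.54, SE 0.296, edgeR adjusted p = 0.00114), ADAM19 from 147 to 297 and 310 (log2 1.04, SE 0.199) and MMP14, which cleaves collagen at the cell surface, from 222 to 443 and 442 (log2 0.99, SE 0.200). PLAUR, the urokinase receptor, gave 0.35 and did not pass. In the lysosome and autophagy list 7 of 39 rose and 2 fell (5 and 1 without the first 36 h library, 4 and 2 without the second, and a median of 0.22 that became -0.09 under library totals alone). The 23.1% called in the lysosome and autophagy list was near the 21.7% of all members. CTSL1, a cathepsin protease of the lysosome, was at 25.9 CPM at 0 h, 49.1 and 54.9 at 4 h, 285 at 12 h, and 1890 and 2020 at 36 h (log2 2.78, SE 0.222, edgeR adjusted p = 0.00111). Cathepsin B, or CTSB, went from 1200 to 4230 and 3430 (log2 1.67, SE 0.233), while CTSD was at 105 and then 72.6 and 80.2 CPM (log2 -0.47, SE 0.253).

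Several ligands of the TGF-beta family rose. INHBA, the subunit of activin A, was at 6.59 CPM at 0 h, 8.98 and 10.8 at 4 h, 4.31 at 12 h, and 101 and 88.0 at 36 h (log2 4.45, SE 0.281, edgeR adjusted p = 0.000797). The 12 h library was the lowest of the 6 and both 36 h libraries stood above all others. BMP2 rose from 4.67 to 27.2 and 26.5 CPM (log2 2.52, SE 0.271) and FST, or follistatin, which binds activin, from 2.30 to 9.13 and 8.16 (log2 1.92, SE 0.295). In all 4 of 9 ligand rows rose and 0 fell (DESeq2 3 and 0, unadjusted p under 0.05 5 and 0). Of 12 receptors and SMADs 0 rose and 2 fell by edgeR (DESeq2 1 and 1, unadjusted p under 0.05 1 and 2, and 1 lower without either 36 h library), among them SMAD3, from 83.4 to 33.7 and 27.5 CPM (log2 -1.44, SE 0.245, edgeR adjusted p = 0.00834). YAP and TAZ genes were 2 higher and 5 lower of 20, with 2 lower without the first 36 h library, 3 without the second and 1 after GC correction. NT5E, the surface nucleotidase CD73, was at 108 CPM at 0 h, 98.7 and 108 at 4 h, 163 at 12 h, and 1400 and 1520 at 36 h (log2 3.16, SE 0.224, edgeR adjusted p = 0.000797). JUB, or Ajuba, of the same list, fell from 46.0 to 21.5 and 18.2 CPM (log2 -1.20, SE 0.218).

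**Figure D5:**
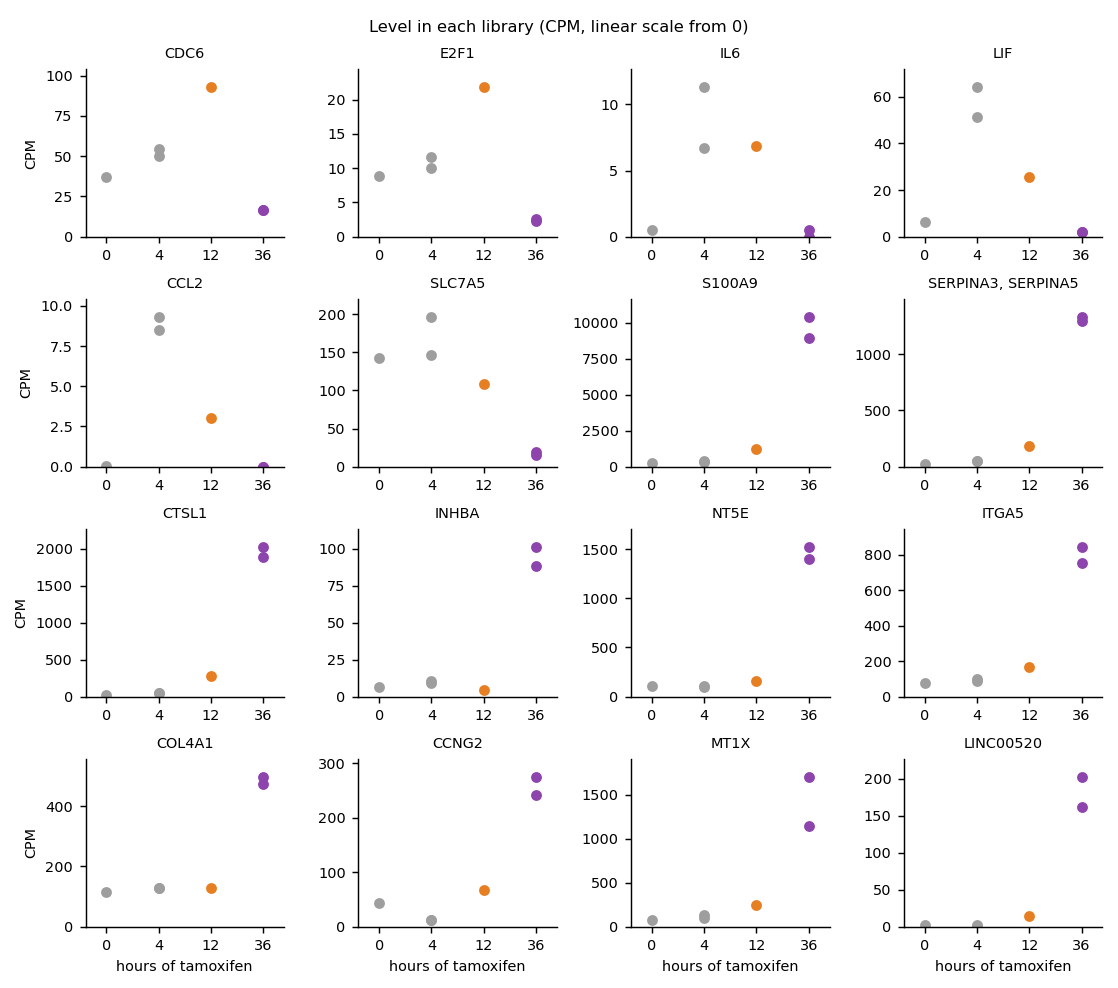
Levels (CPM, linear axes from 0) of 16 named genes in each of the 6 time-course libraries, with the hours of tamoxifen spaced evenly on the x axis; orange is the 12 h library, purple the 36 h libraries and grey the others. In every panel both 36 h libraries lie on the same side of the 12 h library.

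The ATF4 amino acid response list holds factors, enzymes, transporters and other targets. Of its 27 rows 3 were higher and 9 lower (median -0.50), and 5 and 5 after GC correction. The median was -0.50 without the first 36 h library and -0.48 without the second. Of 10 enzymes 0 were higher and 4 lower, and of 7 transporters 1 and 5. Among 5 factors 1 was higher and 0 lower, and among 5 other targets 1 and 0. SLC7A5, which imports leucine, was at 142 CPM at 0 h, 196 and 146 at 4 h, 109 at 12 h, and 19.0 and 15.4 at 36 h (log2 -2.66, SE 0.233, edgeR adjusted p = 0.00132). Its partner chain SLC3A2 went from 221 to 90.2 and 89.4 CPM (log2 -1.30, SE 0.195). Of the enzymes, ASNS, or asparagine synthetase, went from 25.1 to 8.12 and 10.1 (log2 -1.48, SE 0.222), and PHGDH, of serine synthesis, from 53.2 to 19.3 and 15.4 (log2 -1.61, SE 0.225, edgeR adjusted p = 0.00478). SLC38A2, a carrier of neutral amino acids, went the other way, from 1160 to 3740 and 3890 CPM (log2 1.72, SE 0.247, edgeR adjusted p = 0.00515). ATF4 itself was at 172 and then 243 and 252 CPM (log2 0.53, SE 0.184, edgeR adjusted p = 0.0773). Of the 20 aminoacyl-tRNA synthetase rows 25.0% were called, near the 21.7% of all members in either direction. Aminoacyl-tRNA synthetases were 0 higher and 5 lower of 20 (DESeq2 0 and 4, unadjusted p under 0.05 0 and 6, and 3 lower without either 36 h library), for example FARSA, from 71.5 to 29.5 and 18.5 CPM (log2 -1.56, SE 0.264).

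The cytosolic ribosomal proteins rose in 18 of 57 rows and fell in 0 (median 0.71). For 55 rows both 36 h libraries lay above 12 h, against 42.9% of all members. With DESeq2 36 rose and 0 fell, at an unadjusted p under 0.05 44 were higher and 0 lower, and under library totals alone 8 rose. Without the second 36 h library 9 rose, and without the first 20. RPL28 went from 48.8 to 117 and 126 CPM (log2 1.32, SE 0.200, edgeR adjusted p = 0.00618) and RPS24 from 256 to 627 and 705 (log2 1.38, SE 0.214). Short ribosomal protein genes have many processed copies in the genome, so their counts are uncertain. Genes that build the ribosome were by contrast 2 higher and 8 lower of 40 (median -0.32), with 1 and 8 without the first 36 h library, 2 and 5 without the second, and 1 and 18 under library totals alone. NOP56, of the box C/D particles, fell from 176 to 95.4 and 78.1 CPM (log2 -1.02, SE 0.195, edgeR adjusted p = 0.0122, and 0.07 without the second 36 h library). MYBBP1A fell from 152 to 56.2 and 55.2 (log2 -1.44, SE 0.200), while NPM1 and NCL, the main nucleolar proteins, gave 0.24 and 0.00. The share of ribosome biogenesis rows called was 25.0%, near the 21.7% of all members in either direction.

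Stress and survival genes gave a mixed picture. FOXO targets, which growth factor signalling keeps low, were 8 higher and 0 lower of 18 (median 0.69, DESeq2 8 and 0, unadjusted p under 0.05 10 and 0). For 16 of these targets both 36 h libraries lay above 12 h, against 42.9% of all members. The plotted list of 20 rows also holds 2 FOXO factors, of which 0 passed by edgeR, by DESeq2 or at an unadjusted p under 0.05. CCNG2, an unconventional cyclin of arrested cells, was at 42.5 CPM at 0 h, 12.7 and 11.8 at 4 h, 67.8 at 12 h, and 242 and 275 at 36 h (log2 1.93, SE 0.206, edgeR adjusted p = 0.002). KLHL24 went from 34.6 to 133 and 153 CPM (log2 2.05, SE 0.234) and PDK4, which restrains pyruvate oxidation, from 9.54 to 23.5 and 29.8 (log2 1.48, SE 0.250). For PDK4 the 36 h libraries stayed below the 70.7 CPM of 0 h. BCL2 family genes were 2 higher and 1 lower of 14 (median -0.12, DESeq2 3 and 1), and the lower one was a death-promoting member. The 21.4% called in the BCL2 family was near the 21.7% of all members. MCL1, a survival protein of the BCL2 family, was at 1370 CPM at 0 h, 990 and 1110 at 4 h, 1090 at 12 h, and 4200 and 4520 at 36 h (log2 1.99, SE 0.224, edgeR adjusted p = 0.00235). BMF, a death-promoting member, rose from 0.530 to 4.88 and 4.46 CPM (log2 3.13, SE 0.469).

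Metallothioneins, which bind zinc and copper, rose in 4 of 5 rows and fell in 0 by edgeR and by DESeq2, and at an unadjusted p under 0.05 (4 and 0). MT1X went from 242 to 1140 and 1700 CPM (log2 2.55, SE 0.334, edgeR adjusted p = 0.00404) and MT1F from 3.99 to 41.7 and 46.2 (log2 3.46, SE 0.333); the family is of near-identical copies. NRF2 antioxidant genes were 2 higher and 6 lower of 23 (median -0.38), and 1 and 4 without either 36 h library. NQO1, a quinone reductase, fell from 422 to 112 and 139 CPM (log2 -1.75, SE 0.214, edgeR adjusted p = 0.00309). HMOX1 and GCLM gave 0.91 and 0.09 and did not pass. Heat shock genes were 0 higher and 5 lower of 21 (DESeq2 0 and 4, unadjusted p under 0.05 1 and 8, 1 lower without the second 36 h library). The share of heat shock rows called was 23.8%, against 21.7% of all members in either direction. ALDH3A1, an aldehyde dehydrogenase, was among the 10 largest falls, at 99.0 CPM at 0 h, 99.1 and 121 at 4 h, 58.7 at 12 h, and 3.72 and 3.89 at 36 h (log2 -3.95, SE 0.219, edgeR adjusted p = 0.000797).

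In metabolism, oxidative phosphorylation genes were 1 higher and 1 lower of 36 (median 0.02), with 2 and 0 without the first 36 h library and 0 and 0 without the second; under library totals alone 0 were higher and 3 lower, with a median of -0.29. Hypoxia and glycolysis genes were 6 higher and 4 lower of 38 (3 and 3 without the first 36 h library, 3 and 2 without the second), and 3 higher and 11 lower under library totals alone, where the median went from 0.10 to -0.22. SLC2A3, a glucose carrier, rose from 16.9 to 97.8 and 92.9 CPM (log2 2.49, SE 0.217, edgeR adjusted p = 0.00132) and NDRG1 from 201 to 595 and 642 (log2 1.62, SE 0.193). VEGFA gave 0.32 and LDHA 0.33, neither past the test. Sterol and fatty acid genes were 6 higher and 6 lower of 30, with 3 lower without the second 36 h library and after GC correction, and 5 higher and 9 lower under library totals alone. ACLY, which supplies acetyl-CoA, fell from 683 to 305 and 225 CPM (log2 -1.37, SE 0.221) and FADS2, a desaturase, from 153 to 56.4 and 54.3 (log2 -1.47, SE 0.173).

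Among clock genes 3 of 11 rose and 1 fell (median 0.22), with 2 and 0 without either 36 h library and 2 and 2 (median -0.09) under library totals alone. NR1D2, a repressor of the clock, went from 13.1 to 60.2 and 71.1 CPM (log2 2.32, SE 0.234, edgeR adjusted p = 0.00173) and its relative NR1D1 from 3.00 to 11.9 and 10.3 (log2 1.89, SE 0.379). The authors' deposited table did not call NR1D2 (their q-value 0.243). PER1, PER2 and ARNTL gave 0.30, 0.07 and -0.37 and did not pass. Of 9 measured rows of estrogen receptors (3) and their targets (6) 0 rose and 1 fell, a receptor (DESeq2 1 and 1, unadjusted p under 0.05 2 and 3, and 0 and 0 without the first 36 h library). The ESR1 row was at 1560 FPKM at 12 h and 1000 in each 36 h library (log2 -0.55, edgeR adjusted p = 0.364), and RNA of the Src fusion cannot be told from that of the native gene there. Of 9 Eph receptor and ephrin genes 1 rose and 0 fell by edgeR and DESeq2, with 1 higher and 2 lower at an unadjusted p under 0.05, and 0 and 0 by edgeR without either 36 h library.

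Some of the largest rises were in genes with few fragments at 12 h, from 1 for ATP6V0D2 and PPBP to 43 for GZMB. GZMB, or granzyme B, a protease of cytotoxic lymphocytes, was at 0 CPM at 0 h, 0.0519 and 0 at 4 h, 1.52 at 12 h, and 38.5 and 50.5 at 36 h (log2 4.86, SE 0.388, edgeR adjusted p = 0.00111). SULT1B1, a sulfotransferase, went from 0.318 to 10.6 and 13.2 CPM (log2 5.20, SE 0.459), OLAH, a thioesterase of fatty acid synthesis, from 0.954 to 25.1 and 27.0 (log2 4.76, SE 0.339), and RP1, a microtubule protein of photoreceptors, from 1.13 to 36.6 and 29.2 (log2 4.86, SE 0.343). LEMD1 (log2 4.67) and the potassium channel gene KCNE1 (log2 4.56), also among the 10 largest rises, had 5 and 11 fragments at 12 h, and KCNE1 lost its call with DESeq2 (adjusted p = 0.148). ATP6V0D2, a subunit of the proton pump, had 1 fragment at 12 h and 66 and 32 at 36 h, a ratio of 87.3 (exact 95% interval 15.3 to 3480, counting error only). It was not among the authors' deposited calls (their q-value 0.415). PPBP, a platelet chemokine, had 1 fragment and then 31 and 9, a ratio of 35.6 (6.04 to 1440), and its call (edgeR adjusted p = 0.0236) ended without the first 36 h library (adjusted p = 0.097) and with DESeq2 (0.0522).

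Markers of other cell types were looked at beside these. Of 13 immune and blood markers 3 were members and 1 rose, CD68, a lysosomal protein of macrophages, at 9.03 FPKM at 12 h and 53.1 and 29.6 at 36 h. CD68 was not called in the authors' deposited table (their q-value 0.639). The summed FPKM of the immune and blood list went from 19.3 to 67.7 and 47.1. PTPRC, which marks all white blood cells, had 0 fragments at 12 h and 2 and 0 at 36 h, and MS4A1, HBB and NKG7 had none in any of the 3 libraries. Fibroblast markers summed to 65.0 FPKM at 12 h and 108 and 125 at 36 h, with COL1A2 at no fragment; DCN, a matrix proteoglycan, rose (log2 1.14, edgeR adjusted p = 0.0147, and 0.0651 without the second 36 h library). Endothelial markers summed to 6.27 FPKM and then 9.03 and 9.17, with CDH5 at no fragment. Of the 3 measured endothelial members 2 rose and 0 fell (DESeq2 1 and 0). TEK, the angiopoietin receptor, rose from 2.09 to 21.1 and 21.0 CPM (log2 3.33, SE 0.296, edgeR adjusted p = 0.00132). KDR rose from 0.54 to 1.17 and 1.21 FPKM, but lost its call under library totals alone and with DESeq2 (adjusted p = 0.0868). ENG, or endoglin, went the other way, from 5.11 FPKM to 2.74 and 2.96, and did not pass (log2 -0.89, edgeR adjusted p = 0.0963). Luminal markers summed to 2240 FPKM and then 1660 and 1650, of which the ESR1 row, which the Src fusion shares, gave 1560 and then 1000 and 1000, with 0 higher and 2 lower of 8 (DESeq2 1 and 2, unadjusted p under 0.05 1 and 2, 0 and 0 without the first 36 h library, 0 and 1 without the second). Their part in the changes above was not tested.

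Of the remaining members of the 10 largest falls, HR, a nuclear corepressor, went from 46.8 CPM to 4.20 and 3.99 (log2 -3.51, SE 0.309), and C19orf71 had 24 fragments at 12 h and 2 and 0 at 36 h, a ratio of 13.5 (exact 95% interval 3.34 to 118, counting error only). The call of C19orf71 (edgeR adjusted p = 0.0402) ended without the first or the second 36 h library (adjusted p = 0.0555 and 0.098), with DESeq2 (0.0959) and after GC correction (0.0747). At the edge of detection, 75 members had no fragment at 12 h, of which 1 was called, and 28 had none at 36 h, of which 1 was called, CCL2. The cornified envelope gene LCE3D had 0 fragments at 12 h and 8 and 10 at 36 h, at least 5.35-fold higher, and did not pass (edgeR adjusted p = 0.0546).

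More lincRNA rows rose than fell, except under library totals alone. Of 3405 tested 329 were higher (9.66%) and 178 lower (5.23%), against 1276 higher (11.3%) and 1409 lower (12.5%) of 11308 other rows, most of them coding genes. Without the first and the second 36 h library 211 and 193 lincRNA rows were higher, and 168 and 100 lower; under library totals alone 175 were higher and 391 lower. Rows whose names mark them as antisense (AS) made up 2363 of the 3405, with 225 higher and 115 lower. Whether counting used strand is not given in the sources used here, so their reads cannot be told from those of the overlapping gene. Thus linc-IL6-AS, with the same coordinates as IL6, fell by 4.52 on the log2 scale (SE 0.516), and linc-CDC6-AS, over CDC6, fell by 2.98 (SE 0.464).

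LINC00520 is the row linc-TBPL2-2 (XLOC_004884), matched by its position at chr14:56243908-56263392 of hg19 as the table gives it, which does not state whether starts count from 0 or 1. It was at 1.59 CPM at 0 h, 1.56 and 0.934 at 4 h, 14.7 at 12 h, and 162 and 202 at 36 h. Both 36 h libraries stood far above all 4 earlier ones, and from 12 h to 36 h the rise was 3.63 on the log2 scale (SE 0.304, edgeR adjusted p = 0.00114). Larger rises among lincRNA rows were of linc-FGF1-BP (log2 5.30, SE 0.317), linc-MRPL32-2 (4.83, SE 0.409), linc-FAM19A1-2 (4.78, SE 0.348) and linc-ATG2B-4 (4.34, SE 0.514). linc-FGF1-BP was at 20.2 CPM at 0 h, 13 and 10.6 at 4 h, 1.38 at 12 h, and 51.8 and 57.1 at 36 h, so the 12 h library was its lowest. linc-IGFN1-1 had 0 fragments at 12 h and 14 and 6 at 36 h, at least 5.94-fold higher with the floor of 3 fragments. Its call (edgeR adjusted p = 0.0362) ended without the first or the second 36 h library (adjusted p = 0.113 and 0.0568). Of the falls, linc-SDCCAG8 changed by -3.24, linc-SLC15A5 by -3.22 and linc-ADAMTS6 by -3.05, the last beside ADAMTS6, which rose.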

How the data were processed

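The time course of MCF10A-Src cells, polyA RNA-seq, supplied 6 of the 13 samples of the series. Per the submitters' processing notes, bases were called with CASAVA 1.4, reads aligned to hg19 with TopHat and genes quantified with Cuffdiff; the versions of both, the annotation and the strand setting are not given in the sources used here. The deposited table gives estimated counts of fragments per gene (rounded to whole numbers before testing) and FPKM values that the authors scaled across libraries, per the file headers. The authors' deposited calls give a q-value per gene, and a log2 score that was read for its sign only, since some of its values exceed what a log2 fold change can reach.

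Rows with an FPKM of 1 or more in any of the 6 libraries and the status OK (15572) were fitted with edgeR 4.0.16 (quasi-likelihood test, TMM scaling, 4 time groups, 2 residual degrees of freedom) in R 4.3.3. The p-values were adjusted by Benjamini-Hochberg over all 15572 fitted rows, of which the 14713 members are a part. The lone 12 h library is thus assumed to vary like the replicates at 4 h and 36 h. The biological coefficient of variation was 0.162. Alternatives were DESeq2 1.42.0, limma 3.58.1 on log2(FPKM + 1) and log2(FPKM + 0.1), other scalings and filters, libraries left out, and GC-corrected offsets. Rows with no GC value received no GC offset. The scripts were tested on simulated data. Intervals and the floor of 3 fragments cover counting error only.

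Members and gene lists were chosen with earlier results of these data known. Named are LINC00520, SRC and STAT3, the 10 largest called rises and falls among single-symbol coding rows, 5 of each among lincRNA rows, the anchors and up to 4 smallest-p rows of each list, and members absent at one time; any other gene named was chosen after its values were seen. Some items are not reported here. The over-expression samples were not used here.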

Additional observations from a re-analysis of the deposited data

How the results depend on the processing

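No paired analysis was possible because the 12 h library carries no replicate number and shares none with the 36 h libraries. None of the 384 named rows reversed its direction under an alternative that tested it. The balance of lincRNA rows higher and lower did reverse under library totals alone. The counts of members higher and lower at 36 h (1605 and 1587) became 3123 and 3218 when only the 12 h and 36 h libraries were fitted, 836 and 3183 under library totals alone, 656 and 433 with limma on log2(FPKM + 1), and 398 and 240 on log2(FPKM + 0.1). Leaving out 1 library at a time gave 799 to 3083 higher and 714 to 3217 lower. Members at least 2-fold higher (985) were 638 at an FPKM of 5 or more, 528 under library totals alone, and 543 and 393 with limma at the larger and smaller pseudocount; those at least 2-fold lower (1015) were 2056 under library totals alone, and 346 and 232 with limma. Leaving out 1 library at a time gave 770 to 1144 and 699 to 1222. The lincRNA rows higher (329) and lower (178) became 675 and 543 with the 12 h and 36 h libraries only, 160 and 68 at an FPKM of 5 or more, 175 and 391 under library totals alone, 111 and 55 or 65 and 35 with limma, and 193 to 666 and 100 to 540 with 1 library left out. By the authors' deposited calls 219 were higher, and with no FPKM filter 372 were lower. The cause of these differences was not tested, except that fewer rows are tested at the higher FPKM.

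Of the 223 called rows among the 384 named, 211 kept the call and direction with DESeq2, 199 after GC correction (an alternative chosen after seeing the data), 199 under library totals alone, 121 and 91 with limma, 184 in the authors' deposited calls, and 174 and 170 without the first and the second 36 h library. The rows described by name above that the deposited table did not call were IL6, HP, SOD2, ASNS, FOSB, ZEB1, VIM, NDRG1, NR1D2, CD68, KRT5, KRT17 and KRT75. ATP6V0D2, PPBP, C19orf71, linc-IGFN1-1 and linc-CDC6-AS also lacked the deposited call. Named rows with no GC value, such as lincRNA rows and rows with several symbols, received no GC offset, so the GC correction did not test their calls. The authors' log2 column gave no 2-fold counts. Depth limits the rows with few fragments at 12 h, where a single library sets the level.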
